A study of Rattus norvegicus with 6 samples.

Results

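Oxidative phosphorylation is the last step of aerobic energy production, and its nuclear-encoded genes were compared here between maturing and neonatal rat Achilles tendon by complex and by isoform. The genes were the rows of the array table that carried a single symbol beginning with Nduf, Uqcr, Cox4i, Cox5, Cox6, Cox7, Cox8 or Atp5, together with Sdha, Sdhb, Sdhc, Sdhd and Cyc1. For genes with several rows, the brightest row on average stood for the gene. This gave 113 of the 22093 named genes. Of these, 86 were genes of the complexes and their assembly, and 27 were pseudogenes or gene copies by their symbols. Cox7a1, Cox6b1, Cox7c, Atp5f1c and Ndufa13 had no row with a single symbol and were not analysed here. Subunits encoded in mitochondrial DNA fell outside the symbol rule. Of these, COX1, COX2 and COX3 had rows with a mean signal of 19.67 each, at the ceiling of the arrays described below, where no difference can be read.

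RNA came from the Achilles tendon of the left hindlimb after the skin had been taken off, from 3 rats aged 6 to 8 weeks (P 6-8w) and 3 rats of 1 day (P 1d). Each rat gave 1 array, and neither group carried a transgene or received a treatment according to the labels. According to the study's methods, the rats were males of the Sprague Dawley strain. Transcripts were measured on Affymetrix Rat Transcriptome Arrays, which read each transcript as the brightness of a set of short probes. The values are log2 signals after robust multi-array averaging (RMA), so a difference of 1 is a fold change of 2.

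In the inner mitochondrial membrane, complex I takes electrons from NADH and complex II takes them from succinate. Complex III passes them on through cytochrome c to complex IV, which reduces oxygen, and complex V, the ATP synthase, uses the proton gradient that the pumping complexes build. Some subunits of complex IV exist as isoforms encoded by separate genes, with a form found mainly in heart and skeletal muscle and a general form. Cells of mature tendon are few and lie in a dense collagen matrix, whereas the study describes very many cells between thin collagen fibrils in neonatal tendon. Skeletal muscle is rich in these complexes.

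Before the genes themselves, some facts of the arrays bear on every value below. The highest signal per array lay between 19.56 and 19.79 and was shared by many rows. None of the 113 genes came within 0.1 of it. The sources used here do not state which step gave this range, so the size of a log2 difference may depend on it. The type I collagen genes Col1a1 and Col1a2 stood at that ceiling on all 6 arrays. Among other defining genes of tendon, decorin (Dcn), keratocan (Kera) and tenomodulin (Tnmd) were bright at both ages, whereas the rows of Scx and Mkx, transcription factors of the tendon lineage, lay between 4.44 and 5.08 at both ages. Tendon genes were not all steady. Of the 12 listed, 2 were higher and 0 lower in P 6-8w tendons, against 2.46% and 16.8% of all genes. Their log2 differences (P 6-8w minus P 1d) ran from -2.51 to 11.01. Skeletal muscle genes were bright at both ages too. The median of 17 adult muscle genes was 13.21, 11.12 and 13.59 on the P 6-8w arrays and 15.33, 15.37 and 15.60 on the P 1d arrays. Ckm, muscle creatine kinase, read 13.26, 11.19 and 13.42 in P 6-8w tendons and 16.43, 17.08 and 17.51 in P 1d tendons. Of the 17 adult muscle genes, 10 were lower and 3 higher in P 6-8w tendons, against 16.8% and 2.46% of all genes. Of the 17, 16 had a mean signal of 8 or more, and 10 of these were lower, against 72.5% of all genes of that brightness. Of 7 genes of developing muscle, 6 were lower, among them the 3 with a mean signal of 8 or more. Most of 9 epidermal genes, with Krt1 the brightest (17.94 and 18.86), were bright on P 1d replicates 1 and 3 alone. The log2 of their summed signals was 18.10 and 19.32 there, against 7.31 on P 1d replicate 2 and 7.72 to 7.96 in P 6-8w tendons. Ivl, Krt15 and Krt2 did not follow, with 5.60 or less on every array, and Krt2 lay higher in P 6-8w tendons (0.70). The part of these other cell types in the results below was not tested. In whole tissue, fewer cells of a type and less RNA per cell cannot be told apart.

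Most of the oxidative phosphorylation genes had a lower signal in P 6-8w tendons than in P 1d tendons. By limma, at an adjusted p below 0.05 with a fold change above 2, 51 of the 113 genes (45.1%) were lower and 1 was higher, while 61 did not pass. Over all 22093 genes the same test called 16.8% lower and 2.46% higher. The median log2 difference (P 6-8w minus P 1d, as throughout) was -0.95 for the 113 genes, with quartiles of -1.90 and -0.35, and 0.04 for all genes. Every P 6-8w array lay below every P 1d array for 89 of the 113 genes, against 34.1% of all genes, and every P 6-8w array lay above for 4, against 34.8%. At an unadjusted p below 0.05 with no fold limit, 86 of the 113 genes were lower and 4 higher, the higher ones being Ndufa4l2, Cox7b2 and the copies Ndufb11b and Atp5mgl1. The methods' t-test also called no gene higher but Ndufa4l2. The direction of the median depended on the scaling. It stayed below 0 when the arrays were centred on the median of all named genes (-1.07), on reference genes (-0.11) or quantile normalised (-0.31). It was 0.84 when they were centred on the median of the genes with a mean signal of 8 or more, under which the median of all genes was 1.83 and 15 of the 113 genes were lower and 46 higher. The reference genes were not steady as deposited. Of the 9, 3 were called lower and 0 higher, with a median of -0.47, and Gapdh stood within 0.1 of the ceiling on 5 arrays.

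**Figure D1:**
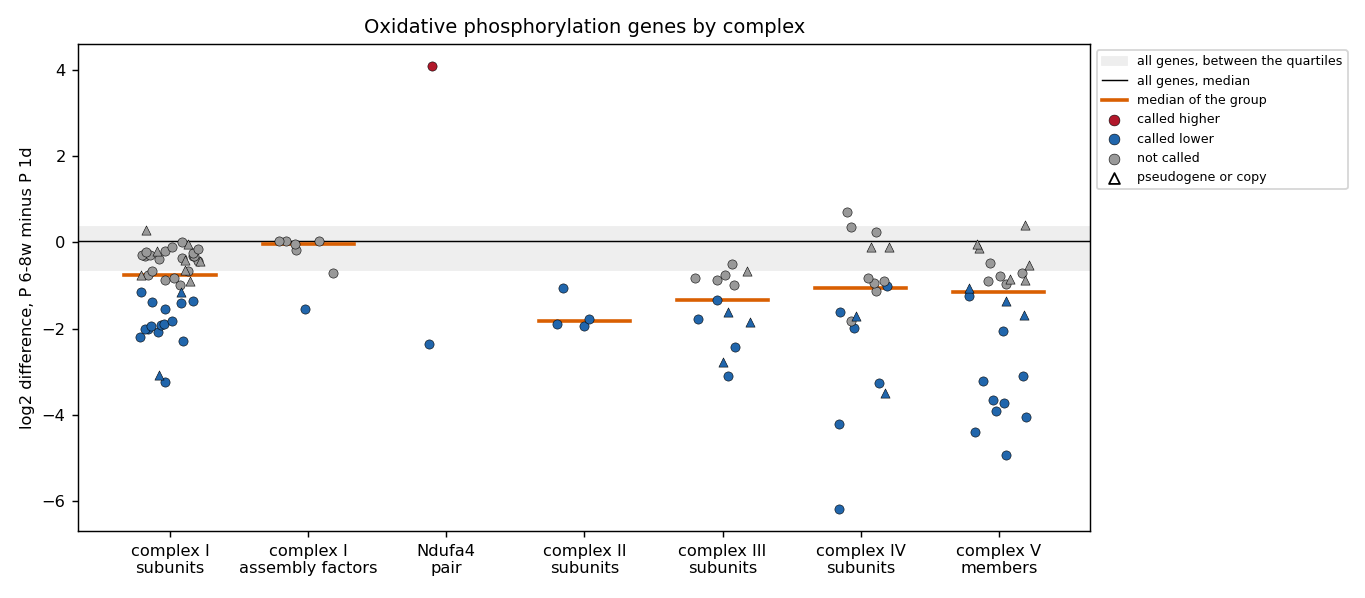
Log2 difference (P 6-8w minus P 1d, vertical axis) of each of the 113 genes, grouped by complex, with the call by colour, pseudogenes and copies as triangles and the group median as an orange bar. The grey band runs between the quartiles of all 22093 genes. Complex V and complex IV reach the lowest values (-4.94 for Atp5mc2 and -6.19 for Cox6a2), and Ndufa4l2 stands alone at 4.09.

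The share of genes called lower rose with brightness. Among genes with a mean signal of 8 or more, 29 of 31 oxidative phosphorylation genes (93.5%) were lower, with a median of -2.78, against 72.5% of all genes of that brightness, whose median was -1.83. Between 5 and 8, 22 of 60 (36.7%) were lower and 1 was higher, against 29.2% lower and 1.96% higher of all such genes, and the medians were -0.86 and -0.60. Under 5, none of 22 oxidative phosphorylation genes passed in either direction by limma, with a median of -0.13 against 0.30 for all such genes. At an unadjusted p below 0.05 and with no fold limit, 7 of these 22 were lower and 3 higher. The excess of lower calls over all genes was thus smaller within a brightness class than over the whole table. Every P 6-8w array lay below every P 1d array for 31 of 31 at 8 or more, against 1663 of 1970 of all such genes. Between 5 and 8 it was 50 of 60 against 5305 of 7704, and under 5 it was 8 of 22 against 575 of 12419. From the brightest class to the dimmest, every P 6-8w array lay above for 0, 1 and 3. Of all genes in those classes, it lay above for 58, 418 and 7209.

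**Figure D2:**
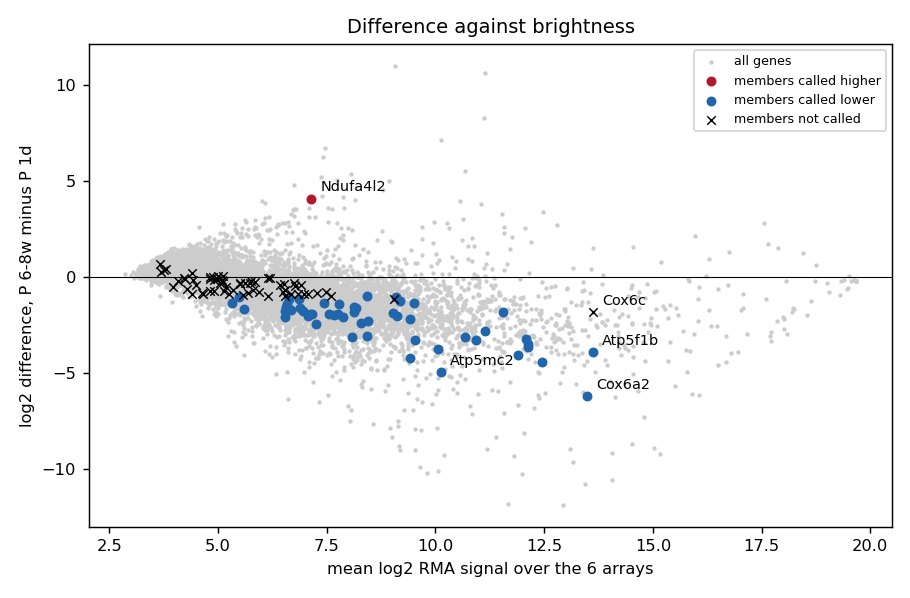
Log2 difference (P 6-8w minus P 1d) against the mean log2 signal over the 6 arrays, with all 22093 genes in grey and the 113 oxidative phosphorylation genes marked by their call. The cloud of all genes bends downward with brightness, and the bright oxidative phosphorylation genes lie in its lower part.

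Within the P 6-8w group, replicate 2 stood apart. It had the lowest signal of its group for 84 of the 113 genes (74.3%) and for 31 of 31 with a mean of 8 or more, against 36.5% of all genes and 85.2% of all genes of that brightness. All 17 adult muscle genes were also lowest on this array. Without it, 49 genes were lower and 1 higher. When P 1d replicate 2, the array with dim epidermal genes, stood alone against the 3 P 6-8w arrays, 10 genes were lower and 1 higher, and the median difference was -0.99. That fit takes the spread of the P 6-8w arrays for both groups.

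**Figure D3:**
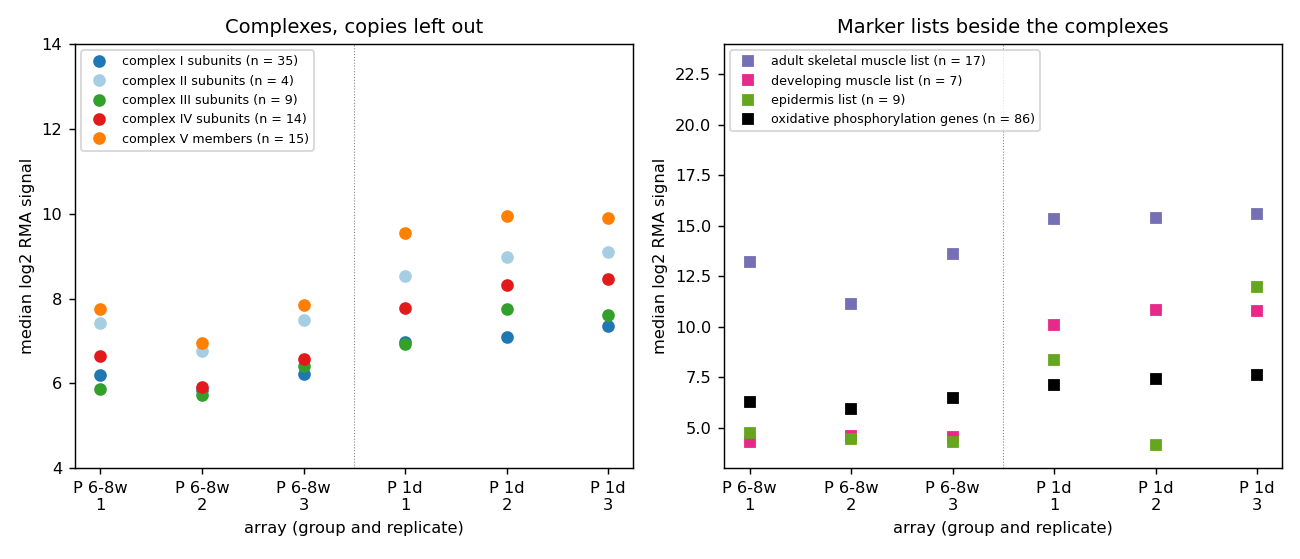
Median log2 signal on each array (P 6-8w left, P 1d right) of the genes of each complex without copies (left panel) and of 3 marker lists beside the 86 oxidative phosphorylation genes (right panel). P 6-8w replicate 2 is the lowest array of each complex and of the adult muscle list, and the epidermal list is bright on P 1d replicates 1 and 3 alone.

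Complex I, the NADH dehydrogenase, had 17 of 45 genes lower (37.8%, against 16.8% of all genes) and none higher, with a median of -0.75. The median was 1.04 when the arrays were centred on the brighter genes and 0.09 when they were centred on reference genes. Of the 45, 7 had a mean signal of 8 or more and 7 a mean under 5. Most lay between, where 29.2% of all genes were lower. Without its 10 copies, 15 of 35 genes of complex I passed, with a median of -0.82. Its core subunits, which hold the flavin and the iron-sulfur clusters, passed in 5 of 6 cases with a median of -1.63, and its accessory subunits in 10 of 29 with a median of -0.66. Those medians cover groups of unlike brightness, and the difference between them was not tested.

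Among the core subunits, Ndufv1, which carries the flavin that accepts electrons from NADH, read 6.75, 6.56 and 7.13 in P 6-8w tendons and 8.61, 8.73 and 8.80 in P 1d tendons. The groups were well separated, and the signal fell by 1.90 on the log2 scale (SE 0.16, adjusted p = 0.000692). Ndufs1, the largest iron-sulfur subunit, read 8.20, 7.41 and 8.67 in P 6-8w tendons and 10.05, 10.07 and 10.22 in P 1d tendons. It was lower at every P 6-8w array, by a difference of -2.02 (SE 0.32, adjusted p = 0.00492). Ndufv2, another iron-sulfur subunit of the NADH-oxidising part, gave -2.20 and adjusted p = 0.00691. Ndufs7 (-1.37) and Ndufs3 (-1.16) also passed, but both had a positive difference with centring on the brighter genes, as did Ndufs8. Ndufs8, which carries iron-sulfur clusters near the quinone site, differed by -0.32 and did not reach the fold limit.

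The lowest difference of complex I belonged to Ndufa9, an accessory subunit near the junction of the peripheral and membrane arms. It read 8.31, 6.92 and 8.47 in P 6-8w tendons and 10.74, 11.30 and 11.41 in P 1d tendons. All P 6-8w arrays lay below all P 1d arrays, and the signal fell by 3.25 (SE 0.46, adjusted p = 0.00336). Ndufa11, an accessory subunit of the membrane arm, followed at -2.28, with 7.66, 7.02 and 7.27 in P 6-8w tendons and 9.14, 9.94 and 9.71 in P 1d tendons. Ndufb10 passed at -1.39, though its difference turned to 0.40 with centring on the brighter genes. Ndufa10l1, a copy of Ndufa10, gave -3.07, whereas Ndufa10 itself gave -1.93. Probes for a gene and for a near-identical copy may share sequence, and how much of a signal came from which was not tested. At the other end, Ndufs5 read 4.89 on all 6 arrays.

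The assembly factors of complex I help build the complex but are not part of it. They had 1 of 7 genes lower (14.3%, against 16.8% of all genes) and a median of -0.05. That gene was Ndufaf5, at 6.12, 5.43 and 5.80 in P 6-8w tendons and 7.32 on each P 1d array, a difference of -1.54 (SE 0.18, adjusted p = 0.00179) that turned to 0.25 with centring on the brighter genes. Ndufaf1 and Ndufaf2 differed by 0.04 and 0.03 and did not pass. Both overlapped between the ages.

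Complex II, succinate dehydrogenase, belongs to both the citrate cycle and the electron transport chain. All 4 of its genes passed in the lower direction, against 16.8% of all genes, with a median of -1.83. The median was -0.04 with centring on the brighter genes and -0.45 after quantile normalisation, and none of the 4 passed under either. Of the 4, 2 had a mean signal of 8 or more, where 72.5% of all genes were lower. Sdha, the flavoprotein subunit, read 8.39, 7.62 and 8.25 in P 6-8w tendons and 9.76, 9.91 and 10.25 in P 1d tendons, which did not overlap (difference -1.89, SE 0.24, adjusted p = 0.0025). Sdhb, the iron-sulfur subunit, read 6.18, 5.90 and 6.14 in P 6-8w tendons and 7.55, 7.83 and 8.18 in P 1d tendons, again without overlap (difference -1.78, SE 0.18, adjusted p = 0.00121).

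The calls of the membrane anchors of complex II depended on single arrays. Sdhd gave -1.94 (SE 0.43, adjusted p = 0.014), with adjusted p = 0.0532 without P 1d replicate 2 and 0.0528 without P 1d replicate 3. Sdhc read 8.72, 7.92 and 9.07 in P 6-8w tendons and 9.41, 9.68 and 9.76 in P 1d tendons. Its groups did not overlap, but P 6-8w replicate 3 came close to P 1d replicate 1, and the difference was only -1.05 (SE 0.31, adjusted p = 0.0347). Sdhc lost its call on leaving out any array except P 6-8w replicate 3, with a difference of -0.72 without P 6-8w replicate 2 and adjusted p up to 0.104 without P 1d replicate 3. It differed by 0.74 with centring on the brighter genes and by 0.69 after quantile normalisation.

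In complex III, the cytochrome bc1 complex, 7 of 13 genes were lower (53.8%, against 16.8% of all genes) and none higher. The median was -1.33 and turned to 0.46 with centring on the brighter genes. Of the 13, 4 had a mean signal of 8 or more, where 72.5% of all genes were lower. Every P 6-8w array lay below every P 1d array for all 13, against 34.1% of all genes and 5305 of 7704 genes with a mean signal of 5 to under 8. Without the 4 copies, 4 of 9 genes passed, with a median of -0.99. Uqcrc2, a core subunit that faces the matrix, read 9.40, 8.44 and 9.57 in P 6-8w tendons and 11.79, 12.31 and 12.63 in P 1d tendons. It was lower by a wide gap (difference -3.11, SE 0.37, adjusted p = 0.00198). Uqcrc1, its partner core subunit, read 5.86, 5.61 and 6.64 in P 6-8w tendons and 8.10, 8.50 and 8.78 in P 1d tendons (difference -2.42, SE 0.32, adjusted p = 0.00267). Both core partners were thus separated between the ages on all arrays.

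Cyc1 and Uqcrfs1 of complex III did not reach the fold limit. Cyc1, the heme protein cytochrome c1, read 5.64, 5.66 and 5.67 in P 6-8w tendons and 6.48, 6.71 and 6.75 in P 1d tendons. Its replicates agreed closely and did not overlap, but at -0.99 (SE 0.09, adjusted p = 0.000779) it fell just short of the fold limit. Uqcrfs1, the Rieske iron-sulfur protein, gave -0.75 and fell short as well. Among the accessory subunits, Uqcrh (-1.77) and Uqcrb (-1.33) passed, and both had a positive difference with centring on the brighter genes. Uqcrq (-0.49) did not pass. The copies Uqcrb-ps1 (-2.78), Uqcrbl1 (-1.84) and Uqcrb-ps2 (-1.61) passed too. Uqcrbl1 lost its call without P 6-8w replicate 3 or without any 1 of the P 1d arrays, and Uqcrb-ps2 without any 1 of the P 1d arrays.

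Complex IV, cytochrome c oxidase, had 8 of 18 genes lower (44.4%, against 16.8% of all genes) and none higher. The median was -1.06 and turned to 0.73 with centring on the brighter genes. Of the 18, 7 had a mean signal of 8 or more, where 72.5% of all genes were lower. Of the general subunits 4 of 8 passed, and of the tissue isoforms 1 of 5. The isoform that passed, Cox6a2, had the lowest difference of all 113 genes. Cox6a2 is the heart and skeletal muscle form of subunit VIa, and it read 11.31, 8.29 and 11.59 in P 6-8w tendons and 15.60, 16.97 and 17.20 in P 1d tendons. Every P 6-8w array was far below every P 1d array, with replicate 2 lowest, and the signal fell by 6.19 (SE 1.00, adjusted p = 0.00516). Without P 6-8w replicate 2 the difference was -5.14.

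Cox6a1, the general form of the same subunit, read 7.84, 6.90 and 7.14 in P 6-8w tendons and 11.24, 11.85 and 11.46 in P 1d tendons. It was separated as clearly, with a difference of -4.22 (SE 0.29, adjusted p = 0.000427). Taken within each array, Cox6a2 minus Cox6a1 was 3.47, 1.39 and 4.45 in P 6-8w tendons and 4.36, 5.12 and 5.74 in P 1d tendons. These values overlapped, and their difference was -1.97 (SE 0.99, exact two-sided permutation test, p = 0.2, adjusted p = 0.24 over 6 contrasts). The smallest p that 3 against 3 arrays can give is 0.1, so no contrast of this design could pass 0.05. A contrast within an array cancels any shift of the whole array, but it compares 2 probe sets and is no ratio of transcript amounts.

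**Figure D4:**
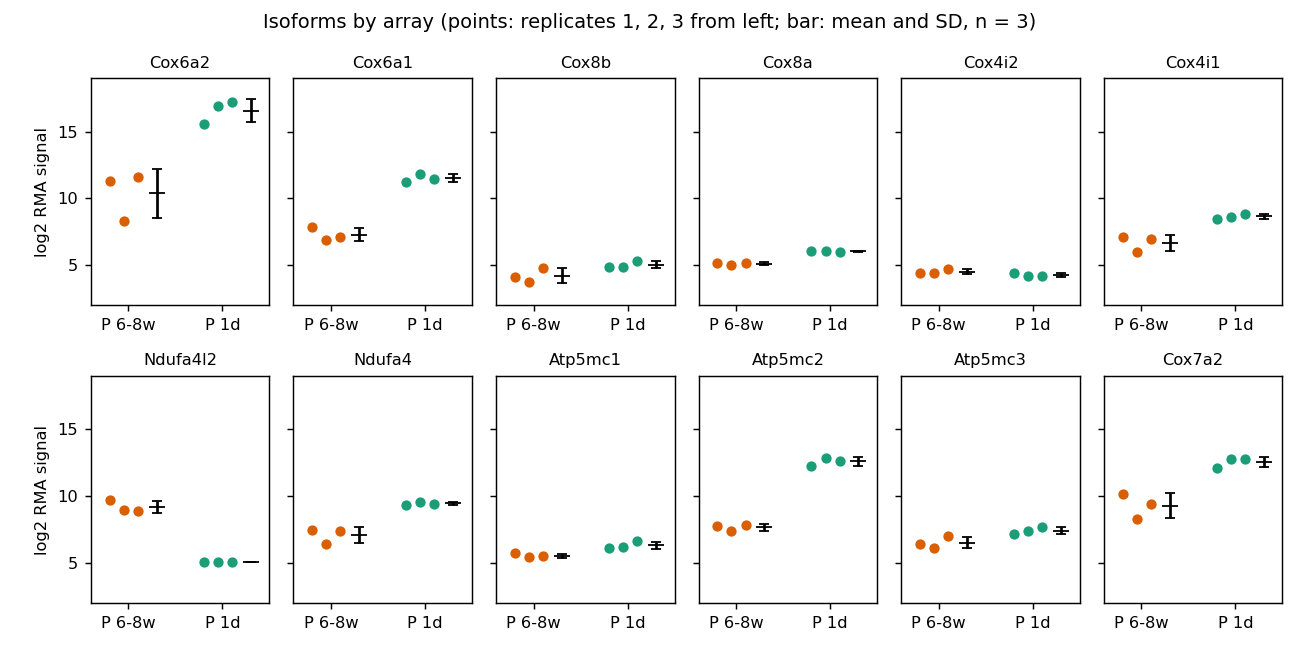
Log2 RMA signal of isoforms and their counterparts on each array, P 6-8w left of P 1d, with replicates 1 to 3 from left to right and the mean and SD (n = 3) beside them. Cox6a2 and Cox6a1 are both lower in P 6-8w tendons, Ndufa4l2 and Ndufa4 move in opposite directions, and of the 3 c-ring genes only Atp5mc2 passes as deposited with all 6 arrays.

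For subunit VIII, neither form passed with all arrays as deposited. Cox8b, the muscle form, read 4.09, 3.73 and 4.81 in P 6-8w tendons and 4.90, 4.86 and 5.34 in P 1d tendons. In P 6-8w tendons its signals lay around the median of all rows (4.43 to 4.54), and in P 1d tendons above it (3.93 to 3.98). The difference was -0.82 (SE 0.31, adjusted p = 0.068). Cox8a, the general form, read 5.16, 4.98 and 5.17 in P 6-8w tendons and 6.04, 6.09 and 6.02 in P 1d tendons. That was a tight separation just under the fold limit (difference -0.95, SE 0.07, adjusted p = 0.000573). The contrast Cox8b minus Cox8a overlapped between the ages, with a difference of 0.12 (SE 0.32, exact permutation test, p = 0.7). With Cox8b around the median of all rows in P 6-8w tendons, this does not show that the balance of the forms stayed the same. Cox8b passed as lower without P 6-8w replicate 3 (-1.12, adjusted p = 0.0162), and Cox8a with centring on the median of all named genes (-1.07, adjusted p = 0.000449). With centring on the brighter genes Cox8b was 0.97 and Cox8a 0.84. The testis form Cox8c stayed between 3.56 and 4.42.

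Subunit IV gave a further pair. Cox4i1, the general form, read 7.09, 5.99 and 6.95 in P 6-8w tendons and 8.48, 8.64 and 8.87 in P 1d tendons, with no overlap (difference -1.99, SE 0.32, adjusted p = 0.00487). Cox4i2, the form known from lung and from hypoxia, read 4.42, 4.40 and 4.72 in P 6-8w tendons and 4.44, 4.20 and 4.19 in P 1d tendons. Its groups overlapped, and it did not pass as deposited (difference 0.24, adjusted p = 0.148). It passed as higher with centring on the brighter genes (2.03) and on reference genes (1.08), as did 17280 and 9185 of all genes. Cox4i2 minus Cox4i1 was -2.67, -1.59 and -2.23 in P 6-8w tendons and -4.04, -4.44 and -4.68 in P 1d tendons, without overlap. That contrast differed by 2.22 (SE 0.36, exact permutation test, p = 0.1, adjusted p = 0.15), which is the smallest p the design allows. Cox4i2 lay near the median of all rows on each array, which was 4.43 to 4.54 in P 6-8w tendons and 3.93 to 3.98 in P 1d tendons, so the contrast mostly carries the difference of Cox4i1.

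For subunit VIIa, the muscle form was not analysed, and Cox7a2, the general form, read 10.15, 8.31 and 9.43 in P 6-8w tendons and 12.15, 12.79 and 12.76 in P 1d tendons. The groups were clearly apart (difference -3.27, SE 0.50, adjusted p = 0.00418). Cox7a2l, which takes part in joining complexes III and IV into supercomplexes, was at the edge of the fold limit at -1.003 (SE 0.08, adjusted p = 0.000601). It lay under that limit without P 6-8w replicate 2 (-0.94) or P 1d replicate 3 (-0.97), and differed by 0.79 with centring on the brighter genes and by 0.61 after quantile normalisation. The copy Cox7a2l2 gave -3.49. Of the remaining general subunits, Cox5a passed at -1.62, or 0.17 with centring on the brighter genes, and Cox5b (-0.88) did not reach the fold limit. Cox6c read 13.16, 11.34 and 13.64 in P 6-8w tendons and 14.23, 14.62 and 14.76 in P 1d tendons. Its P 6-8w replicates were widely spread, and the difference of -1.82 (SE 0.62) had an adjusted p of 0.0524. Without P 6-8w replicate 2 it was -1.14 with adjusted p = 0.0195, and without P 6-8w replicate 3 it was -2.29 with adjusted p = 0.0389. Its direction depended on the scaling, at -0.03 with centring on the brighter genes and 0.97 after quantile normalisation. Cox7b (-1.12) did not pass either (adjusted p = 0.142).

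Ndufa4 was long counted with complex I and is now placed with complex IV, and Ndufa4l2 is its paralog, known as a target of hypoxia-inducible factor. The pair moved in opposite directions. Ndufa4 read 7.44, 6.44 and 7.40 in P 6-8w tendons and 9.34, 9.59 and 9.45 in P 1d tendons, and was lower on every P 6-8w array (difference -2.37, SE 0.29, adjusted p = 0.00217). Ndufa4l2 was the only one of the 113 genes called higher. It read 9.72, 8.95 and 8.91 in P 6-8w tendons and 5.10 on each of the 3 P 1d arrays. The groups were far apart, with a difference of 4.09 (SE 0.23, adjusted p = 0.000256).

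A single value on all P 1d arrays, as for Ndufa4l2 and Ndufaf5, occurred for 6 of the 113 genes and for 3678 of all genes. The fit counted this absence of spread together with the spread of the P 6-8w arrays. For Ndufa4l2 the SD was 0.46 in P 6-8w tendons and 0 in P 1d tendons. The SE and p of such a gene may therefore be too small. Ndufa4l2 was called higher under all 5 scalings, with the difference nearest to 0 being 3.97. Ndufa4l2 minus Ndufa4 was 2.28, 2.51 and 1.51 in P 6-8w tendons and -4.24, -4.49 and -4.35 in P 1d tendons. The groups did not overlap, with a difference of 6.46 (SE 0.31, exact permutation test, p = 0.1, adjusted p = 0.15).

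Complex V, the ATP synthase, had 13 of 24 genes lower (54.2%, against 16.8% of all genes) and none higher. Of the 24, 10 had a mean signal of 8 or more, where 72.5% of all genes were lower. The median of complex V was -1.15 and turned to 0.64 with centring on the brighter genes. Without its 9 copies, 10 of 15 genes passed and the median was -3.10. By part of the enzyme, 3 of 4 genes of the catalytic F1 head were lower, 4 of 4 of the peripheral stalk, 2 of 3 small membrane subunits and 1 of 3 c-ring genes. No test compared the complexes with each other, and they differ in brightness.

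In the F1 head, Atp5f1a, the alpha subunit, read 10.75, 9.19 and 10.81 in P 6-8w tendons and 14.43, 14.71 and 14.82 in P 1d tendons (difference -4.40, SE 0.47, adjusted p = 0.00141). Atp5f1b, the catalytic beta subunit, read 12.52, 10.25 and 12.21 in P 6-8w tendons and 15.44, 15.49 and 15.79 in P 1d tendons (difference -3.91, SE 0.62, adjusted p = 0.00481). For both, P 6-8w replicate 2 was the lowest array and the groups stayed well apart. Atp5f1e, the epsilon subunit of the central stalk, gave -3.72, and its second row on the array gave -3.18. In the peripheral stalk, which holds the head still against the rotor, Atp5pb gave -3.65 (second row -2.60), Atp5pd -3.22, Atp5po -3.10 and Atp5pf -1.25. Of these, Atp5pf turned positive, at 0.54 with centring on the brighter genes and 0.53 after quantile normalisation.

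The c ring is the rotor that turns as protons pass, and 3 genes encode the same mature c subunit with different import sequences. Atp5mc2 read 7.75, 7.38 and 7.85 in P 6-8w tendons and 12.28, 12.88 and 12.65 in P 1d tendons. The replicates of each age lay close together, and the signal fell by 4.94 (SE 0.20, adjusted p = 0.000143). Atp5mc1 read 5.71, 5.42 and 5.50 in P 6-8w tendons and 6.14, 6.20 and 6.63 in P 1d tendons (difference -0.78). Atp5mc3 read 6.42, 6.14 and 7.0 in P 6-8w tendons and 7.16, 7.41 and 7.66 in P 1d tendons (difference -0.89). Both were lower on every P 6-8w array yet did not reach the fold limit with all arrays as deposited. Atp5mc3 passed without P 6-8w replicate 3 (-1.13, adjusted p = 0.0124) and with centring on the median of all named genes (-1.02, adjusted p = 0.0208). With centring on the brighter genes Atp5mc1 was 1.01 and Atp5mc3 0.90. Within arrays, Atp5mc2 minus Atp5mc1 differed by -4.16 (SE 0.24) and Atp5mc2 minus Atp5mc3 by -4.05 (SE 0.21). Neither contrast overlapped between the ages (exact permutation test, p = 0.1 and adjusted p = 0.15 for each).

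Atp5mk, a small membrane subunit, read 10.76, 7.40 and 11.47 in P 6-8w tendons and 13.30, 14.22 and 14.25 in P 1d tendons. P 6-8w replicate 2 lay far under the other arrays of its group, and the difference of -4.05 had an SE of 1.11 and an adjusted p of 0.0275. It lost its call without any 1 of the P 1d arrays, with an adjusted p up to 0.0861, and its second row gave -1.003. Atp5if1, the inhibitor that stops the enzyme from running backwards, gave -0.47 and did not reach the fold limit, and turned to 1.32 with centring on the brighter genes. Of the copies, Atp5mc1l1 (-1.67), Atp5mf-ps2 (-1.36) and Atp5f1c-ps1 (-1.05) passed. Atp5mf-ps2 lost its call without P 1d replicate 2 or 3, and Atp5f1c-ps1 without P 6-8w replicate 2 or P 1d replicate 2.

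Of the 113 genes, 11 were called lower under all 5 scalings (as deposited, the 3 centrings and quantile normalisation). These were Cox6a2, Cox6a1 and Cox7a2 of complex IV, Atp5mc2, Atp5f1a, Atp5f1b, Atp5f1e, Atp5pb and Atp5po of complex V, and Ndufa9 and the copy Ndufa10l1 of complex I. Their differences nearest to 0 ranged from -3.79 for Cox6a2 to -1.14 for Cox7a2. No gene of complex II or complex III was among them. Centring on the brighter genes raised every difference, and the lowest of complex II, that of Sdhd, went from -1.94 to -0.15. No gene of complex II could therefore pass under all 5. Uqcrc2 of complex III passed under the other scalings but gave -0.99 after quantile normalisation, just short of the fold limit.

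Genes that work beside the complexes were counted in lists chosen with earlier results of these data known, against 16.8% of all genes called lower. Of the enzymes of the citrate cycle and of pyruvate entry, which feed NADH and succinate to the chain, 14 of 16 measured genes (87.5%) were lower and none higher, with a median of -2.10, or -0.31 with centring on the brighter genes, where 3 were lower and 2 higher. Of the 16, 11 had a mean signal of 8 or more, and all 11 of these were lower, against 72.5% of all genes of that brightness. Idh2, the NADP-dependent mitochondrial isocitrate dehydrogenase, read 8.18, 7.55 and 8.31 in P 6-8w tendons and 12.69, 12.98 and 13.66 in P 1d tendons (difference -5.10, adjusted p = 0.000344). Mdh2, malate dehydrogenase (-4.62), Pdha1, a subunit of pyruvate dehydrogenase (-3.69), and Idh3g, a subunit of the NAD-dependent isocitrate dehydrogenase (-2.75), also fell. Among carriers, pores and cytochrome c, 8 of 13 (61.5%) were lower and none higher, with a median of -2.08. With centring on the brighter genes the median was -0.29, and 3 were lower and 4 higher. Of the 13, 8 had a mean signal of 8 or more, and 7 of these were lower, against 72.5% of all genes of that brightness. The list also held Atp5if1, which was counted with complex V above. The lower genes included the uncoupling protein homologue Ucp2 (-4.31), the outer membrane channels Vdac2 (-3.36) and Vdac1 (-3.16), and the phosphate carrier Slc25a3 (-2.70).

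The ADP/ATP carriers again have a general and a muscle form. Slc25a5, the general form, read 8.35, 8.14 and 8.69 in P 6-8w tendons and 10.42, 10.43 and 10.57 in P 1d tendons (difference -2.08, adjusted p = 0.000492). Slc25a4, the heart and muscle form, read 12.60, 12.06 and 12.58 in P 6-8w tendons and 12.90, 12.94 and 12.90 in P 1d tendons. It lay slightly lower on each P 6-8w array, at -0.50, and did not reach the fold limit. With centring on the brighter genes it differed by 1.29 and after quantile normalisation by 2.03. Both carriers were chosen here for their isoforms after their values were seen.

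Factors that assemble complexes II to V and I outside the Nduf names were called lower for 9 of 39 genes (23.1%, against 16.8% of all genes) and higher for none, with a median of -0.43, or 1.36 with centring on the brighter genes. Of the 39, 2 had a mean signal of 8 or more, of which 1 was lower, and 8 had a mean under 5. Most lay between 5 and 8, where 29.2% of all genes were lower, so the list showed no clear excess at like brightness. Those that passed included Lrpprc, which stabilises mitochondrial messenger RNA (-2.52), Cox15, an enzyme of heme A synthesis (-2.35), and the copper-handling factors Cox17 (-2.11) and Cox11 (-2.07). Of 19 regulators of mitochondrial genes, 10 (52.6%) were lower and none higher, with a median of -1.02, or 0.77 with centring on the brighter genes. Of the 19, 2 had a mean signal of 8 or more, of which 2 were lower, and 5 had a mean under 5. At an unadjusted p below 0.05 with no fold limit, 0 citrate cycle genes, 1 carrier, 3 assembly factors and 0 regulators were higher. Mef2c, a transcription factor of muscle and other lineages, read 10.20, 9.48 and 9.97 in P 6-8w tendons and 14.79, 14.65 and 15.25 in P 1d tendons (difference -5.01, adjusted p = 0.000184). Mef2d (-2.61), Gabpa, an ETS factor that binds promoters of respiratory genes (-2.04), and Ppargc1a, the coactivator PGC-1alpha (-1.52), were lower too, although Ppargc1a turned to 0.27 with centring on the brighter genes.

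The adult muscle list that stood beside these genes did not move as one. Myh4, the fast myosin of adult muscle, read 15.42, 14.99 and 15.38 in P 6-8w tendons and 6.95, 6.96 and 6.95 in P 1d tendons. It was higher at every P 6-8w array, by 8.31. Pvalb (6.26) and Myh1 (3.95) of the same list were also called higher, whereas 10 of its 17 genes were lower. From the developing muscle list, Myh3, the embryonic myosin, read 9.28, 8.05 and 9.03 in P 6-8w tendons and 19.29, 19.31 and 19.42 in P 1d tendons (difference -10.55). Of the adult list, Mb, myoglobin, overlapped, with 12.11, 9.47 and 14.39 in P 6-8w tendons and 10.81, 11.72 and 11.36 in P 1d tendons. Acta1, skeletal actin, read 19.59, 17.41 and 19.52 in P 6-8w tendons and 19.75, 19.79 and 19.74 in P 1d tendons. It stood within 0.1 of the ceiling on P 6-8w replicates 1 and 3 and on all P 1d arrays, so its difference cannot be read.

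To set the sequence beside the values, the stretch from 250 bases before to 50 after each gene's start was taken from RefSeq (rat assembly GRCr8), which held it for 84 of the 113 genes and for 75 of them without copies. These windows were searched on both strands for 4 motifs. The motif of NRF1, a factor known from respiratory gene promoters, occurred in 18.7% of the 75 promoters, against 4.71% of all 27457 promoters of the same length. The ETS motif CCGGAAG, bound by Gabpa among others, occurred in 28% against 9.22%. The ERR motif TCAAGGTCA occurred in 2.67% against 0.412%, and the MEF2 motif, named for a family of muscle regulators, in 1.33% against 3.37%. The comparison set counts genes of every kind. A match is a description of letters and not of binding.

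Rates were also taken by call, as a description with no test. The NRF1 motif occurred in 16.2% of 37 promoters of genes called lower and 21.6% of 37 promoters of genes not called, and the ETS motif in 29.7% and 27%. The MEF2 motif occurred in 1 of the 75 promoters, that of Cox6a2, the muscle form. The windows of the lowest gene, of the c-ring gene that passed and of the only higher gene are shown 5′ to 3′, with the motif match in capitals, which is MEF2 for Cox6a2 and NRF1 for Atp5mc2.
Cox6a2: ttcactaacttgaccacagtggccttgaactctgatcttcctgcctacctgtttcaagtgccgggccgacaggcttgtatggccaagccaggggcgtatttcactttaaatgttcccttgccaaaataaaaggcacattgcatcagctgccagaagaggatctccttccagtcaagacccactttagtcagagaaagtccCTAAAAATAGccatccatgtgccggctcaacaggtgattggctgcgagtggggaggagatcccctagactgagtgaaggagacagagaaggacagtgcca
Atp5mc2: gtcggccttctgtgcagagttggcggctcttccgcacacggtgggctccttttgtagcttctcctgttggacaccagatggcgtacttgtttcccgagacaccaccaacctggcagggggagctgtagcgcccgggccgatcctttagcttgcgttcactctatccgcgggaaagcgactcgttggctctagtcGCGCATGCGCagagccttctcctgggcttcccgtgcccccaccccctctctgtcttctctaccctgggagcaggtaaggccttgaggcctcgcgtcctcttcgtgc
Ndufa4l2: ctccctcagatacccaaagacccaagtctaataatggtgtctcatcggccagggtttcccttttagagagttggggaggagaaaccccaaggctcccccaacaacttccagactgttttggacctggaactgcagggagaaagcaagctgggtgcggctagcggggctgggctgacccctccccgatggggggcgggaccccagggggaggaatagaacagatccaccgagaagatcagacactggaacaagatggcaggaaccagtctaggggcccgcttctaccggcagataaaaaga

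The Cox6a2 window lies on the minus strand at chr1:192219667-192219966, and its match begins at base -50 from the start. The Atp5mc2 window lies on the minus strand at chr7:135678169-135678468, with its match at base -56. The Ndufa4l2 window lies on the plus strand at chr7:65241919-65242218 and held none of the 4 motifs, which says only that these letters are not in it.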

How the data were processed

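The authors ran RMA on the 6 arrays with Affymetrix default settings, scaled them globally and deposited the log2 signals. The sources used here do not give the build behind the array's annotation. Both deposited tables held the same log2 values (413052 of 413052 equal). Of 68842 rows, 23446 had 1 gene symbol. A further 505 named several genes, 8 of them with a symbol of the rule, and were left out. Precision is limited by the 6 arrays and by signal over background.

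The 2 ages were tested over 22093 genes in R 4.3.3 with lmFit and eBayes of limma 3.58.1, with no covariate. A call needed a fold change above 2 and a p below 0.05 after Benjamini-Hochberg adjustment over all genes. SE is limma's moderated standard error, and for contrasts between isoforms that of the difference of means. The step was tested on simulated data. The methods' own test, Student's test without adjustment at the same limits, was an alternative. Contrasts between isoforms were taken within arrays and tested by exact permutation. Of the 6, those of Cox4i2, Ndufa4l2 and Atp5mc2 were added after seeing the data.

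The genes and lists were chosen with earlier results of these data known. Named were the isoforms, complex II, Cyc1, per complex the called genes with the lowest and highest differences and those nearest to 0, and up to 4 called genes of each list. Ndufs1, Ndufv1, Ndufs8, Uqcrfs1, Cox5b, Cox6c, Cox7b, Atp5mc1, Atp5mc3, Atp5f1e, Atp5if1, Atp5pb, Atp5pd, Atp5po, Slc25a4, Slc25a5, Ndufa10, Cox7b2, Ndufb11b, Atp5mgl1 and the marker genes other than Acta1, Ckm, Myh3, Myh4 and Mb were chosen after their values were seen.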

Additional observations from a re-analysis of the deposited data

How the results depend on the processing

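Of the alternatives, the methods' t-test (51 genes lower unadjusted, 47 adjusted), limma with trend and robust hyperparameters (51), leaving out dim genes (52) or genes at the ceiling (51) and the mean of a gene's rows (51) kept the count of lower genes within 1.5 times the main count of 51, and so did centring on the median of the named genes (59). Other settings moved the counts. With no fold limit, 79 genes were lower and 3 higher, with 28 lower in complex I, 2 among its assembly factors, 13 in complex III and 21 in complex V. With P 1d replicate 2 alone, 10 were lower, with 3 in complex I, 0 assembly factors, 1 in complex II, 2 in complex III, 2 in complex IV and 2 in complex V. With centring on the brighter genes, 15 were lower and 46 higher, and the lower genes numbered 2 in complex I, 0 among assembly factors, 0 in complex II, 1 in complex III, 4 in complex IV and 8 in complex V. With centring on 9 reference genes, 31 were lower and 6 higher, and the lower genes numbered 10 in complex I, 0 among assembly factors, 2 in complex II, 4 in complex III and 5 in complex IV. With quantile normalisation, 17 were lower and 1 higher, and the lower genes numbered 3 in complex I, 0 among assembly factors, 0 in complex II, 1 in complex III and 3 in complex IV. Over all genes, centring on the brighter genes called 591 lower and 17280 higher, centring on reference genes 1613 and 9185, and quantile normalisation 990 and 894, against 3705 and 544 as deposited. The scaling that fits these tissues was not tested.

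Leaving out each array in turn gave 43 to 56 lower genes and 1 higher gene, with 16 to 19 lower genes in complex I, 2 to 4 in complex II, 5 to 7 in complex III, 7 to 10 in complex IV and 10 to 15 in complex V. The contrast Cox6a2 minus Cox6a1 ranged from -2.64 to -1.11 on leaving out an array, and Cox8b minus Cox8a from -0.14 to 0.30. Cox8b minus Cox8a was -0.33 after quantile normalisation. Among named genes called in either fit, those whose difference turned positive with centring on the brighter genes were Sdhb 0.01, Sdhc 0.74, Cox7a2l 0.79, Ndufa13-ps1 0.65, Ndufs3 0.63, Ndufs7 0.42, Ndufb10 0.40, Ndufb4l3 1.76, Ndufaf5 0.25, Ndufs8 1.47, Uqcrb 0.46, Uqcrb-ps2 0.18, Uqcrh 0.023, Uqcrq 1.30, Uqcr11l1 1.13, Uqcrfs1 1.04, Cox5a 0.17, Cox6b1-ps1 0.08, Cox7cl1 1.68, Cox6c-ps1 1.67, Atp5f1c-ps1 0.74, Atp5pf 0.54, Atp5mf-ps2 0.43, Atp5mc1l1 0.12, Atp5hl1 1.75, Atp5mgl4 1.65, Atp5mc1 1.01, Atp5if1 1.32, Slc25a4 1.29 and Ppargc1a 0.27. Called in neither fit, Acta1 0.87, Atp5mc3 0.90, Cox5b 0.91, Cox7b 0.67, Cox8a 0.84, Cox8b 0.97 and Cyc1 0.80 turned positive too, and Cox6c came to -0.03. After quantile normalisation the called ones were Sdhc 0.69, Cox7a2l 0.61, Uqcrbl1 0.41, Atp5pf 0.53, Atp5mf-ps2 0.47 and Slc25a4 2.03, and those called in neither fit were Cox6c 0.97, Cox7b 0.58, Ndufb4l3 0.72, Ndufs8 0.22, Atp5mc3 0.18 and Atp5if1 0.52, while Cox4i2 turned to -0.08. The cause of these changes was not tested.

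Same-numbered arrays share only a number in the labels, and their deviations from the group means correlated at 0.01, -0.11 and 0.05. With the replicate block, 50 genes were lower and 1 higher. The contrasts between Cox7a1 and Cox7a2 and the protein identities of the isoforms were not run.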
